A study of Rattus norvegicus with 8 samples.

Results

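Foreign-body and lipid-associated macrophage genes were examined in peritoneal macrophages of rats that had received carbon nanotubes. The group was a named list of 10 genes, Trem2, Tyrobp, Gpnmb, Spp1, Cd9, Lgals3, Fabp5, Ctsk, Acp5 and Dcstamp, and each was found by its symbol in 1 row of a table of 23487 genes. The macrophages came from 8 female Wistar rats, 8 weeks old, and were collected 15 days after injection into the peritoneal cavity and sorted by flow cytometry. The CNT-7 group (4 rats, numbers 3, 5, 10 and 11) had received MWCNT-XNRI-7, a needle-like multi-walled nanotube that causes mesothelioma in the rat. The CNT-T group (4 rats, numbers 1, 2, 12 and 13) had received a tangled multi-walled nanotube that does not. Each library was 1 rat. Untreated rats were not analysed here, so every value is a difference between particles, and neither particle can be set against macrophages of a resting cavity.

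Macrophages that meet material which they cannot digest, such as fibres, implants or excess lipid, are known to turn on a shared set of genes. TREM2 is a surface receptor for lipids and debris that signals through the adaptor DAP12, the product of Tyrobp, and lipid-associated macrophages of fat, atheroma and fatty liver carry it together with CD9, GPNMB, osteopontin (Spp1), galectin-3 (Lgals3) and the fatty acid carrier FABP5. Cathepsin K (Ctsk), tartrate-resistant acid phosphatase (Acp5) and the fusion protein DC-STAMP (Dcstamp) are best known from osteoclasts, and also mark the multinucleated giant cells that form around foreign bodies. Long nanotubes are a classic case of a fibre that a macrophage cannot enclose.

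The libraries held between 27195157 and 33732981 estimated counts per rat, and levels are given as CPM, counts per 1000000 after TMM normalization. At this depth 3 counts corresponded to between 0.0887 and 0.109 CPM, and such a floor covers counting error alone. The sorted cells expressed all 8 macrophage markers examined, whose summed level was between 15200 and 22300 CPM under CNT-7 and between 23700 and 33900 CPM under CNT-T. Most of that sum was Lyz2, with means of 17600 CPM under CNT-7 and 24400 CPM under CNT-T. Of the 8 markers, Csf1r, Cd68, Adgre1 and Fcgr1a were lower and Cd14 was higher in CNT-7. Markers of B cells, mast cells, mesothelial cells and fibroblasts summed to at most 2.65 CPM in any rat. Eosinophil markers reached 9.33 CPM in 1 CNT-7 rat and at most 0.359 CPM under CNT-T, with Epx at 0 in all 8 rats. Neutrophil markers summed to between 33.8 and 63.0 CPM under CNT-7 and between 26.2 and 68.4 CPM under CNT-T, with Mpo at 0 in all rats. Most of the neutrophil sum was Csf3r, with means of 43.9 and 33.7 CPM. Dendritic cell markers summed to between 4.66 and 8.48 CPM under CNT-7 and between 4.26 and 8.35 CPM under CNT-T. Only the T cell list separated the groups among the lists of other cells, with 6.07 to 9.43 CPM under CNT-7 and 0.967 to 1.48 CPM under CNT-T. Most of it was Cd8a (6.02 ± 2.55 against 0.896 ± 0.224 CPM, SD, n = 4), while the means of Cd3d, Cd3e and Cd3g were at most 0.809 CPM.

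The genes did not move as a block between the particles. Of the 9 genes with enough counts to be tested, Cd9 and Acp5 were higher in CNT-7, by 12.4-fold and 7.93-fold, and Trem2 and Fabp5 were lower, by 2.27-fold and 1.38-fold. Tyrobp, Gpnmb, Spp1, Lgals3 and Ctsk did not pass the threshold, and Dcstamp had too few counts for a test. A gene was called at an adjusted p under 0.10 in edgeR's quasi-likelihood test. Among all 12124 genes tested, 27.9% were called, 13.9% as higher and 14.0% as lower in CNT-7, against 4 of these 9 (44.4%). The ranges of the 2 groups of rats were apart in 3 of the 9 genes, Cd9, Acp5 and Trem2, and in 24.9% of all genes. The median log2 fold change (CNT-7 over CNT-T) was -0.19 over the 9 genes and 0.0083 over all genes. In the ranking of all genes by fold change, Cd9 and Acp5 lay at the 99.5th and 99.2nd percentile and Trem2 at percentile 2.72. A level measured in a bulk sample can fall because fewer cells express the gene or because each holds less of its RNA, which cannot be told apart here.

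**Figure D1:**
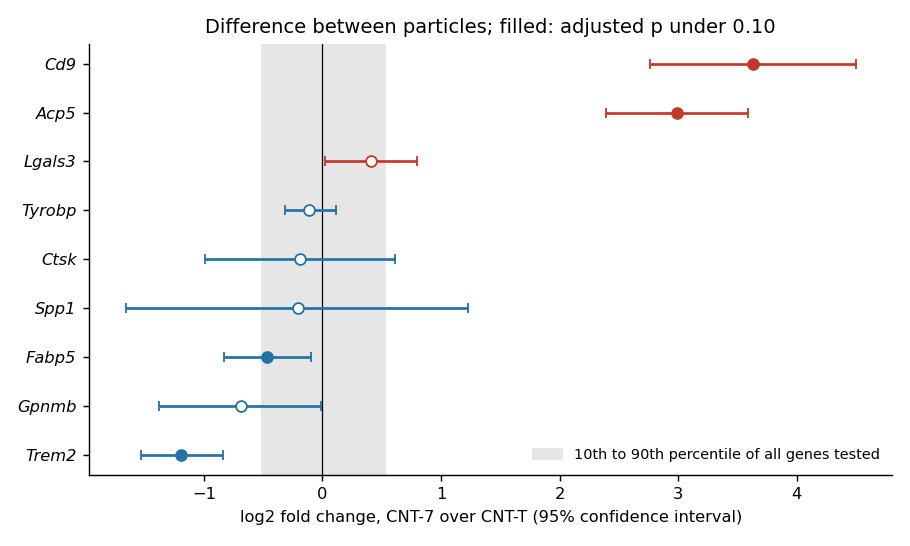
Log2 fold change of the 9 tested genes, CNT-7 over CNT-T, with its 95% confidence interval (horizontal axis), one gene per line. Filled points passed an adjusted p under 0.10, and the grey band runs from the 10th to the 90th percentile of all genes tested (-0.51 to 0.53). Cd9 (3.63) and Acp5 (2.99) lie far to the right of the band, whereas Trem2 (-1.19) is the only gene whose interval lies wholly to its left.

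The sequence before the transcription start is shown for the 3 genes whose groups did not overlap and for Gpnmb, a textbook target of the MiT/TFE factors. RefSeq promoter windows (build GRCr8, whereas the counts used Rnor_6.0) were found for 6 of the 10 genes, with 7 windows as Acp5 has 2 starts. Capitals mark matches, on either strand, to the core CATGTG of the M-box bound by MITF and its relatives, to TGANTCA (AP-1) or to GAGGAAG (PU.1), and no match overlapped another. Each line gives 250 bases read 5′ to 3′ in the direction of the gene and ending just before the start.
Cd9 (higher in CNT-7, chr4:159975359-159975608, minus strand): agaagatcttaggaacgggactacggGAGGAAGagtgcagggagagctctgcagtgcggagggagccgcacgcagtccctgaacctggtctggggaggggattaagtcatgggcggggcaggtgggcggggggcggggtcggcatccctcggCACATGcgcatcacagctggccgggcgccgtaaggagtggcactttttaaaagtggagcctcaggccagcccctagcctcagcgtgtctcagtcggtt
Acp5 (higher in CNT-7, the start with a match, chr8:28943930-28944179, minus strand): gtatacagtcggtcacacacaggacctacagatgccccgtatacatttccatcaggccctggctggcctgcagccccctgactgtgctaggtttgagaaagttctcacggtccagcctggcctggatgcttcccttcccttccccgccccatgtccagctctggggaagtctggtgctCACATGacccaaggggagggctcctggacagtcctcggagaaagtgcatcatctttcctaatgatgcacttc
Trem2 (lower in CNT-7, chr9:20151780-20152029, minus strand): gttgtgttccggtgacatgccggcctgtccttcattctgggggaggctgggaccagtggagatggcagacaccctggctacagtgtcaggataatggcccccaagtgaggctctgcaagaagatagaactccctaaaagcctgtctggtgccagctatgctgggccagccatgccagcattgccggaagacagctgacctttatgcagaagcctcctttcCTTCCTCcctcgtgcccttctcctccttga
Gpnmb (not called, chr4:79340878-79341127, plus strand): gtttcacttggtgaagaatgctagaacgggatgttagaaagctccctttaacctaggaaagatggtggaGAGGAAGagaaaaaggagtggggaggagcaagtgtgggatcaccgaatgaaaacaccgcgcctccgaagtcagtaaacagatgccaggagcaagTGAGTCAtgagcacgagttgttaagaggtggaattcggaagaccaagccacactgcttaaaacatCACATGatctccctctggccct
The M-box core was found upstream of Cd9 (its first base at -98, where -1 is the base before the start), Gpnmb (-22), Ctsk (-151) and 1 of the 2 starts of Acp5 (-72). It was not found in these windows of Trem2 and Spp1. Of 33465 such windows in the RefSeq table, 12.1% held the core. The PU.1 letters lay upstream of Trem2 (-30), Cd9 (-224), Gpnmb (-181) and Ctsk (-115), against 10.2% of all windows, and the AP-1 letters upstream of Gpnmb (-87) alone among these genes, against 6.34%. The palindrome CACGTG, present in 5.59% of all windows, was in none of the 7. The motifs were chosen after the counts were seen, and a match is a description of the letters and not of a bound site.

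The receptor and its adaptor parted. Trem2 (ENSRNOG00000013578) had 15.2, 22.1, 27.2 and 23.1 CPM in CNT-7 rats 3, 5, 10 and 11, and 52.0, 48.2, 44.6 and 54.2 CPM in CNT-T rats 1, 2, 12 and 13. Every CNT-7 rat lay below every CNT-T rat. The log2 fold change was -1.19 with a standard error of 0.16 (edgeR, adjusted p = 0.0011), and it stayed between -1.30 and -1.05 when any 1 rat was left out. Tyrobp (ENSRNOG00000020845) had 686, 582, 614 and 532 CPM under CNT-7 and 673, 698, 648 and 580 CPM under CNT-T in the same order of rats. These ranges overlapped almost entirely, with a log2 fold change of -0.11 (95% confidence interval -0.32 to 0.11, adjusted p = 0.48 from edgeR). Within a library, which needs no normalization, there were 2.22 to 4.43 Trem2 counts per 100 Tyrobp counts under CNT-7 and 6.89 to 9.35 under CNT-T. Of the 8 macrophage markers, 4 were lower like Trem2, with log2 fold changes between -1.13 (Adgre1) and -0.33 (Csf1r). Cd14 was higher (0.46), and Mrc1 (0.58), Mertk (0.08) and Lyz2 (-0.47) did not pass. Their part in the lower level of Trem2 was not tested.

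In a list of TREM2 and DAP12 signalling genes, which mixed activating and inhibitory ones, the share of called genes was near that of all genes. Of 15 signalling genes tested, 3 were higher, 1 was lower and 11 did not pass (26.7% called, against 27.9% of all genes), and their median log2 fold change was 0.06. Syk, the kinase that docks on phosphorylated DAP12, was at 269 ± 6.79 CPM under CNT-7 and 229 ± 16.9 CPM under CNT-T (SD, n = 4; log2 fold change 0.23, adjusted p = 0.049 from edgeR). Its call was lost without CNT-7 rat 3, 5 or 10 or CNT-T rat 12, where the adjusted p reached at most 0.12. Lyn, a Src family kinase, and Grb2, an adaptor, were higher by log2 fold changes of 0.31 and 0.44 (adjusted p = 0.017 and 0.0059, edgeR). The exchange factor Vav3 was lower with a log2 fold change of -0.28 (adjusted p = 0.069, edgeR), and in the fits without CNT-7 rat 3 or 10 or CNT-T rat 12 or 13 its adjusted p was between 0.13 and 0.17. Plcg2, which turns the signal into calcium release, had a log2 fold change of 0.23 (adjusted p = 0.12, edgeR), and 0.058 was its adjusted p without CNT-T rat 1. Hcst, the sister adaptor DAP10, had one of -0.26 (adjusted p = 0.25).

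Among the TREM family, other receptors of DAP12 and regulators of TREM2, 9 of 12 genes found in the table were tested, 4 being higher, 1 lower and 4 below the threshold (44.4% higher and 11.1% lower, against 13.9% and 14.0% of all genes), with a median log2 fold change of 0.13. Adam10, a protease that sheds TREM2 from the surface, was at 434 ± 24.3 CPM under CNT-7 and 335 ± 23.6 CPM under CNT-T (log2 fold change 0.37, adjusted p = 0.0084, edgeR), with no overlap. Adam17, the other sheddase, had a log2 fold change of 0.13 (adjusted p = 0.40). Treml2 (0.72, adjusted p = 0.00070) and the DAP12-coupled lectin Clec5a (1.56, adjusted p = 0.014) were higher in edgeR's test, and Trem3 was lower (-0.48, adjusted p = 0.028). Ms4a7, a member of the MS4A family that is linked to TREM2, had 25 to 81 counts under CNT-7 and 1 to 9 counts under CNT-T (log2 fold change 3.02, adjusted p = 0.0044, edgeR). Of the same family, Ms4a6a was at 69.5 ± 11.1 CPM under CNT-7 and 69.1 ± 5.88 CPM under CNT-T (log2 fold change 0.01, adjusted p = 0.96, edgeR). Ms4a4a had no count in any rat. Within the TREM family itself, Treml2 was thus higher and Trem3 lower like Trem2, whereas Trem1 had a log2 fold change of -0.22 and did not pass (adjusted p = 0.15, edgeR).

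**Figure D2:**
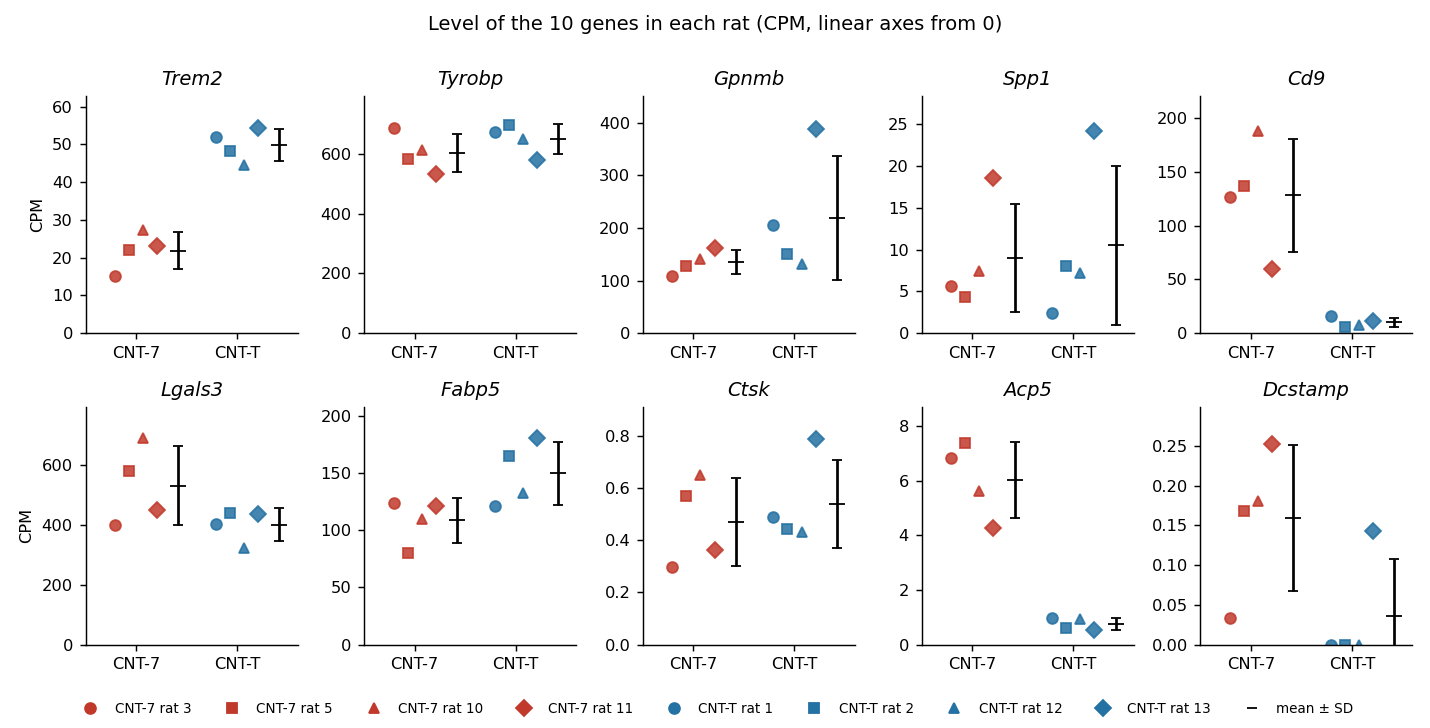
Level of each of the 10 genes in every rat, in CPM on linear axes that start at 0 (one panel per gene, CNT-7 red, CNT-T blue, a marker shape per rat), with the mean and SD of 4 rats as black bars. The 4 CNT-7 rats sit above all CNT-T rats for Cd9 and Acp5 and below them for Trem2, and CNT-T rat 13 (blue diamond) stands high for Gpnmb, Spp1 and Ctsk.

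Cd9 had the largest fold change of the 9 tested genes. This tetraspanin organises membrane proteins and holds back the fusion of macrophages. Cd9 (ENSRNOG00000019556) had 127, 137, 188 and 60.0 CPM in CNT-7 rats 3, 5, 10 and 11, and 15.7, 6.12, 8.01 and 11.5 CPM in CNT-T rats 1, 2, 12 and 13. The lowest CNT-7 rat, rat 11, was thus still well above the highest CNT-T rat. The log2 fold change was 3.63 with a standard error of 0.39 (edgeR, adjusted p = 0.00042) and stayed between 3.39 and 3.91 with any 1 rat left out. Among genes of the lists for other cells, Cd8a (log2 fold change 2.74) and the dendritic cell marker Clec9a (1.32 ± 0.628 against 0.390 ± 0.174 CPM, 1.76) were also higher in CNT-7. The neutrophil marker S100a8 was lower (2.24 ± 0.986 against 6.17 ± 2.16 CPM, -1.46). For each of these markers the groups did not overlap. The other dendritic cell marker tested, Zbtb46 (-0.22), did not pass. Cd3d, Cd3e and Cd3g, listed with Cd8a, had too few counts for a test, with means of at most 0.809 CPM. Of the neutrophil list, S100a9 (1.23), Cxcr2 (1.26), Csf3r (0.39) and Elane (-0.68) did not pass either. The part of cells other than macrophages in the level of Cd9 was not tested.

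Other tetraspanins differed far less. Cd53 was at 857 ± 74.4 CPM under CNT-7 and 488 ± 60.5 CPM under CNT-T (log2 fold change 0.81, adjusted p = 0.00098 from edgeR), and Cd151 had a log2 fold change of 0.41 (adjusted p = 0.0030). Cd63, a tetraspanin of late endosomes, had one of 0.58 (adjusted p = 0.043, edgeR), a call that was lost without CNT-T rat 2 or 12 (adjusted p = 0.11 in both fits). Cd37, Cd81 and Cd82 had log2 fold changes between 0.06 and 0.13 and did not pass. Cd9, Cd53, Cd151 and Cd63 were therefore all higher in CNT-7 than in CNT-T, but the log2 fold change of Cd9 was larger than those of the other tetraspanins examined.

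Of the 3 osteoclast and giant cell genes, Acp5 was higher in CNT-7 and Ctsk and Dcstamp were scarcely expressed. Acp5 (ENSRNOG00000046261), an acid phosphatase of lysosomes, had 6.83, 7.40, 5.63 and 4.27 CPM in CNT-7 rats 3, 5, 10 and 11 and 0.978, 0.591, 0.923 and 0.537 CPM in CNT-T rats 1, 2, 12 and 13. Even the lowest CNT-7 rat, again rat 11, was above each CNT-T rat, where the gene had 15 to 30 counts. The log2 fold change was 2.99 with a standard error of 0.27 (edgeR, adjusted p = 0.00025), with a range of 2.86 to 3.13 over the fits that left out 1 rat. Ctsk (ENSRNOG00000021155), a collagen-degrading protease, had 0.296, 0.570, 0.650 and 0.362 CPM under CNT-7 and 0.489, 0.443, 0.429 and 0.788 CPM under CNT-T, that is 9 to 22 counts per rat. The groups overlapped (log2 fold change -0.19, 95% confidence interval -0.99 to 0.61, adjusted p = 0.76, edgeR), and an interval as wide as this leaves a change of either sign possible. Dcstamp (ENSRNOG00000004704), which is needed for the fusion of macrophages, had 1, 5, 5 and 7 counts in CNT-7 rats 3, 5, 10 and 11. It had 0 counts in CNT-T rats 1, 2 and 12, which allows up to 3 counts (0.0978, 0.0887 and 0.0989 CPM), and 4 counts in CNT-T rat 13. Without a filter on low counts its adjusted p was 0.26 and its unadjusted p 0.084 (edgeR).

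Genes of osteoclasts and of macrophage fusion were examined around Acp5. Of 22 genes, 18 were tested, with 7 higher, 1 lower and 10 below the threshold (38.9% higher and 5.56% lower, against 13.9% and 14.0% of all genes). Their median log2 fold change was 0.27. Calcr and Atp6v0d2 had 0 counts in all 8 rats, and Ocstamp had 2 to 4 counts in the CNT-7 rats and 0 in the CNT-T rats. Other genes that osteoclasts use were expressed under both particles, among them Nfatc1 (means of 49.4 and 41.6 CPM), Tnfrsf11a (8.34 and 9.67 CPM) and the proton pump gene Tcirg1 (125 and 141 CPM). Itgb3, the chain that pairs with integrin alpha V as an osteopontin receptor, was at 53.9 ± 26.9 CPM under CNT-7 and 7.01 ± 0.941 CPM under CNT-T (SD, n = 4, log2 fold change 2.94, adjusted p = 0.00039 from edgeR). Its CNT-7 values of 35.3, 49.5, 93.1 and 37.7 CPM were all above the CNT-T maximum of 7.75 CPM. Il4r, the receptor of the cytokine that drives giant cell formation, was higher by a log2 fold change of 1.07 (adjusted p = 0.0011, edgeR). Mmp9, a gelatinase, was lower at 0.785 ± 0.201 against 8.89 ± 8.48 CPM (log2 fold change -3.50, adjusted p = 0.0041, edgeR), and its log2 fold change was -2.58 without CNT-T rat 1, which had 21.5 CPM. Src, a kinase of the resorbing osteoclast, had a log2 fold change of 0.93 (adjusted p = 0.083, edgeR), but in 7 of the 8 fits without 1 rat it did not pass, with adjusted p between 0.11 and 0.22, and only the fit without CNT-7 rat 11 called it. Nfatc1, the master factor of osteoclasts (0.25, adjusted p = 0.35), and Tnfrsf11a, the receptor RANK (-0.21, adjusted p = 0.40), did not pass in edgeR. Without CNT-T rat 1 the adjusted p of Nfatc1 was 0.099.

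**Figure D3:**
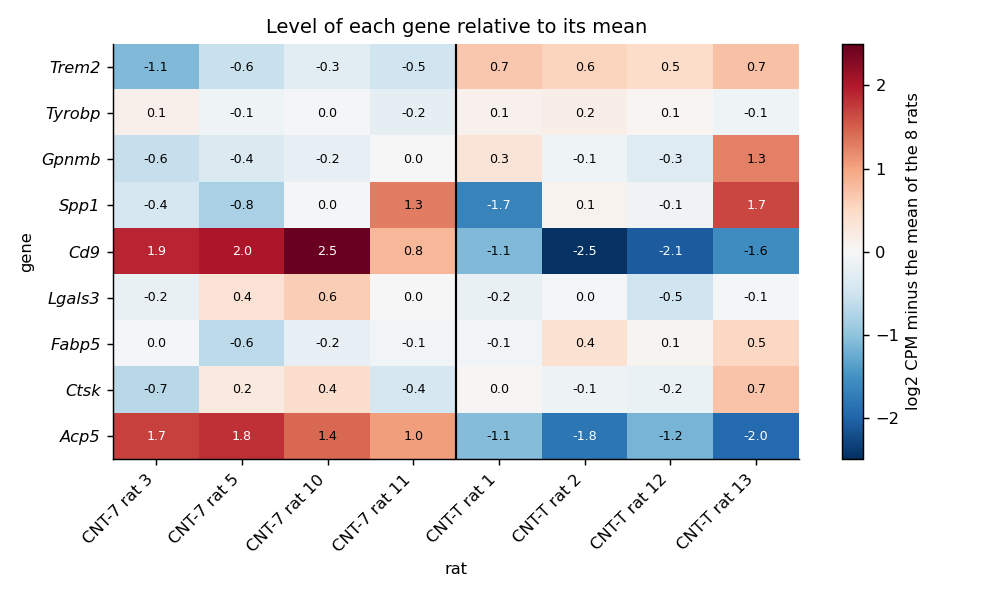
Log2 CPM of each of the 9 tested genes (rows) in each rat (columns) minus the mean of the 8 rats, with red for levels above and blue for levels below that mean. The rows of Trem2, Cd9 and Acp5 change colour at the line between CNT-7 and CNT-T, while in the row of Spp1 the high values are those of CNT-7 rat 11 and CNT-T rat 13.

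Gpnmb and Spp1 varied widely between rats of 1 group, and neither passed the test. GPNMB is a membrane glycoprotein of lysosomes, and osteopontin is a secreted ligand of integrins and CD44. Gpnmb (ENSRNOG00000008816) had 109, 128, 142 and 162 CPM in CNT-7 rats 3, 5, 10 and 11, and 205, 151, 131 and 389 CPM in CNT-T rats 1, 2, 12 and 13. The ranges overlapped because of CNT-T rats 2 and 12, and CNT-T rat 13 was far above the rest. The log2 fold change was -0.69 with a standard error of 0.31 (edgeR, adjusted p = 0.15); it was -0.27 without CNT-T rat 13 (adjusted p = 0.34) and -0.88 without CNT-T rat 12, which was the only fit without 1 rat that called it (adjusted p = 0.079). Spp1 (ENSRNOG00000043451) had 5.68, 4.36, 7.47 and 18.5 CPM under CNT-7 and 2.41, 8.10, 7.15 and 24.2 CPM under CNT-T in the same order of rats. The coefficient of variation was 71.7% under CNT-7 and 90.6% under CNT-T, and the log2 fold change of -0.21 had a 95% confidence interval from -1.66 to 1.23 (adjusted p = 0.85, edgeR). Without CNT-T rat 13 it was 0.61 (adjusted p = 0.51).

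CNT-T rat 13 had the highest level of its group in 6 of the 10 genes, which were Trem2, Gpnmb, Spp1, Fabp5, Ctsk and Dcstamp. The same rat had the lowest Tyrobp and Acp5 of its group. Fabp4, the fatty acid carrier of fat cells and foamy macrophages, was also highest there, at 30.1 CPM while CNT-T rats 1, 2 and 12 had 5.15 to 9.55 CPM. Its log2 fold change was -0.18 with all rats (adjusted p = 0.84, edgeR) and 0.69 without this rat (adjusted p = 0.16). In the CNT-7 group, rat 11 had the highest Gpnmb, Spp1 and Dcstamp and the lowest Tyrobp, Cd9 and Acp5. The total counts of CNT-T rat 13 were the lowest of the 8 rats and those of CNT-7 rat 11 the second lowest, and the part of depth in these levels was not tested.

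Lgals3 and Fabp5 differed by less. Galectin-3 is a lectin that binds glycans on the cell surface and on damaged lysosomes. Lgals3 (ENSRNOG00000010645) had 400, 582, 692 and 450 CPM in CNT-7 rats 3, 5, 10 and 11 and 402, 441, 323 and 437 CPM in CNT-T rats 1, 2, 12 and 13. Of the CNT-7 rats, 5, 10 and 11 were above all CNT-T rats, and rat 3 was among them. The log2 fold change was 0.41 with a standard error of 0.17 (edgeR, adjusted p = 0.13), and the call was made by DESeq2 (adjusted p = 0.075) and in the fits without CNT-7 rat 3 (adjusted p = 0.061) or rat 11, where it lay just under the threshold. Fabp5 (ENSRNOG00000049075) had 124, 80.4, 110 and 121 CPM under CNT-7 and 121, 165, 133 and 181 CPM under CNT-T in the same order, so that the highest CNT-7 rat lay slightly above the lowest CNT-T rat. Its log2 fold change was -0.47 with a standard error of 0.16 (edgeR, adjusted p = 0.072). The call was lost without CNT-7 rat 5 (adjusted p = 0.15) or rat 10 (0.12) and without CNT-T rat 2 or rat 13 (0.16 in both fits). The RefSeq table lists pseudogenes of Fabp5, with which reads could be shared, so its level is uncertain.

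**Figure D4:**
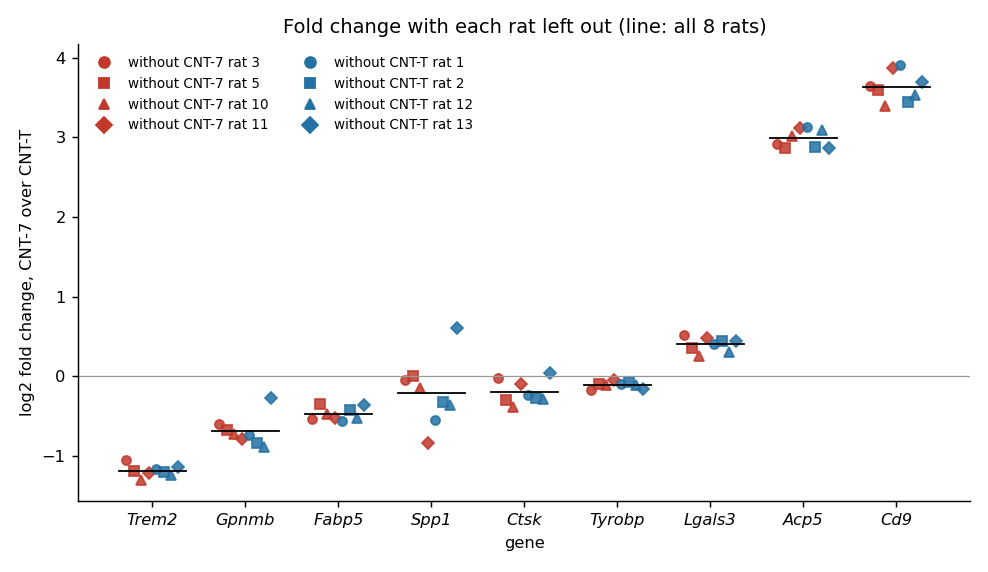
Log2 fold change (CNT-7 over CNT-T, vertical axis) of each of the 9 tested genes with 1 rat left out, a point per rat and a line for the value with all 8 rats. Trem2, Cd9 and Acp5 stay near their lines, while Spp1 crosses 0 and reaches 0.61 without CNT-T rat 13.

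Of the receptors and ligands of the secreted genes, 8 were tested, and 3 were higher, 2 lower and 3 below the threshold (62.5% called, against 27.9% of all genes). Their median log2 fold change was 0.13. Cd44, a receptor of osteopontin and hyaluronan, was at 2520 ± 259 CPM under CNT-7 and 1460 ± 79.3 CPM under CNT-T (SD, n = 4; log2 fold change 0.78, adjusted p = 0.00070, edgeR), with every CNT-7 rat above every CNT-T rat. Sdc4, a heparan sulfate proteoglycan that binds GPNMB, was higher by a log2 fold change of 1.09 (adjusted p = 0.00052), as was Itga5 by 0.71 (adjusted p = 0.026), and Itga9, an osteopontin receptor chain, was lower (-1.18, adjusted p = 0.0040), as was Itga4, a chain of the same kind (-0.63, adjusted p = 0.0026, all by edgeR). Among galectins, cathepsins, fatty acid binding proteins and other relatives of the 10 genes, 17 of 27 genes were tested, 3 of them being higher, 2 lower and 12 below the threshold, and these 29.4% called were near the 27.9% of all genes. Lgals9 was lower (log2 fold change -0.60, adjusted p = 0.0074), as was the cathepsin Ctsh (-0.31, adjusted p = 0.070), and the cathepsin Ctsc was higher (0.76, adjusted p = 0.0015, edgeR), while Cd53 and Cd151 are given above. Fabp1, Fabp2, Fabp6, Fabp7, Ibsp and Mepe had no count in any rat.

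Of the wider lipid-associated programme, 26 genes were tested, and 11 were higher, 4 lower and 11 below the threshold. The higher genes were 42.3%, against 13.9% of all genes, and the lower genes 15.4%, which is near the 14.0% of all genes. Like the other lists, this one was chosen with earlier results of these data known, so its shares are descriptions and not tests. The median log2 fold change was 0.31 against 0.0083 over all genes. Cst7, the cysteine protease inhibitor cystatin F, had 104, 75.5, 83.3 and 87.9 CPM in CNT-7 rats 3, 5, 10 and 11 and 0.522, 3.46, 0.824 and 0.931 CPM in CNT-T rats 1, 2, 12 and 13 (log2 fold change 5.90, adjusted p = 0.00013, edgeR). No CNT-7 rat came near a CNT-T rat, and the log2 fold change was 6.85 without CNT-T rat 2. Lgals1, the gene of galectin-1, was at 22.8 ± 11.1 against 2.29 ± 2.34 CPM (log2 fold change 3.29, adjusted p = 0.0068, edgeR, and 4.32 without CNT-T rat 2). The growth factor gene Igf1 was at 31.0 ± 9.95 against 4.06 ± 1.08 CPM (2.93, adjusted p = 0.00025, edgeR). Mmp12, the macrophage elastase, had 25 to 133 counts under CNT-7 and 1 to 6 counts under CNT-T (4.69, adjusted p = 0.0017, edgeR, and 5.42 without CNT-T rat 13).

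Apoe, the apolipoprotein that lipid-loaded macrophages secrete, was at 22.9 to 48.9 CPM under CNT-7 and 25.9 to 40.7 CPM under CNT-T (log2 fold change 0.01, adjusted p = 0.98, edgeR). It was highest in CNT-7 rat 11, at 48.9 CPM, and without that rat the log2 fold change was -0.29 (adjusted p = 0.25). Lpl, the lipase that frees fatty acids from lipoproteins, had 29.1 to 128 CPM under CNT-7 and 78.2 to 118 CPM under CNT-T (log2 fold change -0.49, adjusted p = 0.40), but was called as lower without CNT-7 rat 3 (-0.95, adjusted p = 0.051, edgeR). Cd68, a lysosomal glycoprotein, was lower at 558 ± 49.2 against 709 ± 115 CPM (-0.34, adjusted p = 0.071, edgeR), a call that held only without CNT-7 rat 11 or CNT-T rat 13, the adjusted p being between 0.11 and 0.16 without any other rat. Axl, a receptor for apoptotic cells that was named after its values were seen, had the most negative fold change of the list, with 695 ± 146 CPM under CNT-7 and 1850 ± 322 CPM under CNT-T (-1.42, adjusted p = 0.00098, edgeR). The cathepsin Ctsd was lower too, at 2410 ± 240 against 4090 ± 489 CPM with no overlap (-0.76, adjusted p = 0.002, edgeR). Ctss, another cathepsin, was also called as lower (-0.30, adjusted p = 0.088, edgeR).

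**Figure D5:**
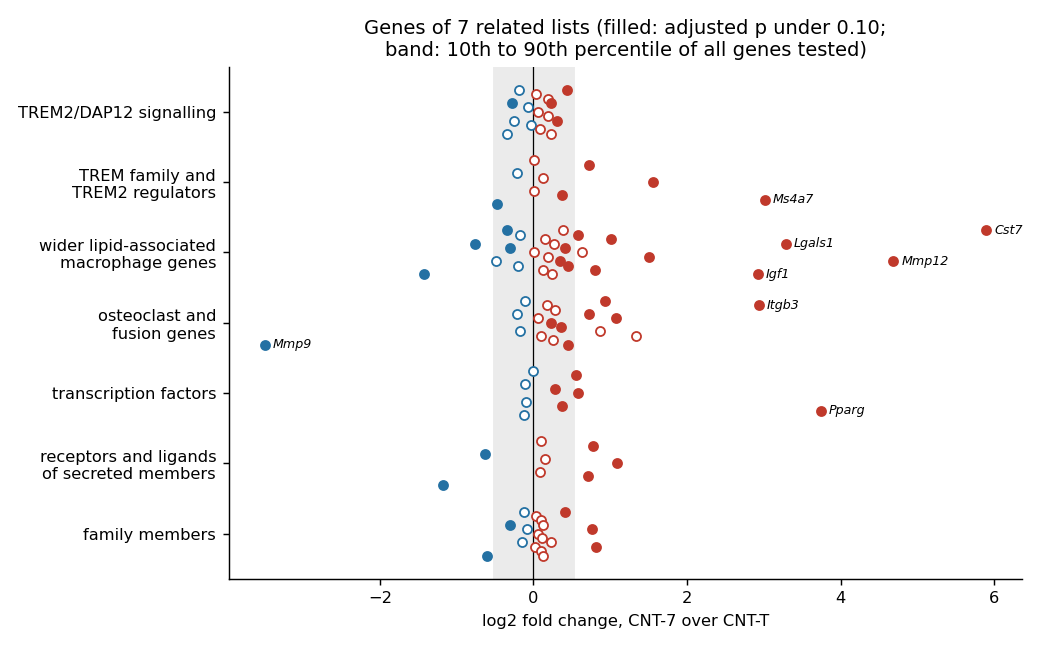
Log2 fold change (CNT-7 over CNT-T, horizontal axis) of each tested gene of 7 related lists, one list per line, filled where the adjusted p was under 0.10 and named where it passed 2 in size. The grey band marks the 10th to the 90th percentile of all genes tested (-0.51 to 0.53), and Cst7 (5.90), Mmp12 (4.69) and Pparg (3.74) lie farthest to its right.

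Of 9 transcription factors that act on these genes, 5 were higher, none was lower and 4 did not pass (55.6% higher, against 13.9% of all genes). The median log2 fold change was 0.28, and the call of Nr1h2 depended on single rats. Mitf, which drives Acp5 and Ctsk in osteoclasts, had 40.4, 44.5, 46.8 and 42.6 CPM in CNT-7 rats 3, 5, 10 and 11 and 28.5, 25.0, 28.3 and 34.8 CPM in CNT-T rats 1, 2, 12 and 13. The groups did not overlap, and the log2 fold change was 0.58 (adjusted p = 0.0042, edgeR). Its relative Tfec was at 30.7 to 60.5 CPM against 40.0 to 53.1 CPM (-0.10, adjusted p = 0.78). The relatives Tfeb (-0.11, adjusted p = 0.60, edgeR) and Tfe3 (a mean of 45.9 CPM under either particle) did not pass either. Spi1, the gene of PU.1 (0.37, adjusted p = 0.018), and Ppard (0.56, adjusted p = 0.010) were higher in edgeR's test. Nr1h2, which encodes LXR beta, was called with a log2 fold change of 0.28 (adjusted p = 0.085, edgeR), and not without CNT-7 rat 5 or 10 or CNT-T rat 2, 12 or 13 (adjusted p between 0.17 and 0.21). Pparg, a lipid-sensing factor named after its values were seen, had 19 to 40 counts in the CNT-7 rats and 0 to 4 counts in the CNT-T rats (log2 fold change 3.74, adjusted p = 0.0016, edgeR).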

How the data were processed

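Bulk RNA-seq of 8 macrophage samples, 4 per particle, was used, with groups taken from the sample titles and 0 columns of the table unused. With the ARMOR workflow, the authors quantified reads with Salmon (version not given in the sources used here) against Ensembl cDNA of Rnor_6.0. They deposited estimated counts per gene, not normalized and already whole. Counting divides reads among similar transcripts. The libraries held 27195157 to 33732981 counts.

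In the re-analysis, edgeR 4.0.16 in R 4.3.3 was run on all genes passing filterByExpr (minimum count 10, minimum total 15), with TMM normalization, quasi-likelihood tests and Benjamini-Hochberg adjustment over 12124 genes. Standard errors are the log2 fold change over the square root of F. The paper's threshold of 0.10 was used. The alternatives were DESeq2 1.42.0, other normalizations, filters and thresholds, a term for low (1 to 5) or high (10 to 13) rat numbers, and each rat left out. The scripts were tested on simulated data.

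The 10 genes and all lists were chosen with earlier results of these data known, so adjusted p-values are given over all genes only. Named list genes were the 4 called genes of largest change per list with at least 1 CPM, and a set of partner genes given by name. Itga4, Ctsh, Pparg, Axl, Ms4a4a, Ms4a6a, Ctsd, Ctss, Tfeb and Tfe3 were named after their values were seen. Trem1, Tcirg1, Cd37, Cd81, Cd82, Calcr, Fabp1, Fabp2, Fabp6, Fabp7, Ibsp and Mepe were also named outside this rule. Treml4, Cd36, Itgb5, Ctso and Cd79a were not analysed here. No coordinates of the authors' build were used. Replicates of a group differed beyond sampling noise, the smallest chi-square per gene of a pair being 32.0.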

Additional observations from a re-analysis of the deposited data

Results flagged for a closer look

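In 8 of 106 groups of 4 rats examined, 1 rat stood apart from the other 3 by Dixon's ratio, its gap to the nearest rat over the range of the group, above the 95% critical value. The groups were levels of the 10 genes, of the list genes named by the rule that had a count, and of Pparg and Axl. About 1 in 20 groups, here 5.3, is reached by chance if levels are normally distributed, which does not hold for counts near 0. Of the 10 genes, Ctsk (ratio 0.832, 0.788 CPM against 0.429 to 0.489 CPM) and Dcstamp (ratio 1.0, 4 counts against 0) were highest in CNT-T rat 13. For Dcstamp the other 3 rats were at 0, so the ratio would be 1.0 at any count in rat 13. In CNT-T rat 2, Cst7 was highest (ratio 0.861, 3.46 CPM against 0.522 to 0.931 CPM), and so was Lgals1 (ratio 0.834, 5.76 CPM against 0.692 to 1.53 CPM). In CNT-T rat 1, Mmp9 was highest (ratio 0.842, 21.5 CPM against 3.75 to 6.55 CPM), as was Ctsc (ratio 0.843, 636 CPM against 531 to 548 CPM), and Ms4a7 was lowest with 1 count (ratio 0.884). Axl was lowest in CNT-7 rat 10 (ratio 0.877, 478 CPM against 753 to 792 CPM).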

How the results depend on the processing

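The calls and directions of Trem2, Cd9 and Acp5 were kept under every alternative run. Of the 10 genes, 2 were called as lower, but 1 with an adjusted p under 0.05 or with at least a 2-fold change, and between 1 and 3 with 1 rat left out, while 2 to 3 were called as higher. Over all genes, a 2-fold requirement left 552 higher and 454 lower, instead of 1686 and 1697. These stricter thresholds lower counts by construction. Among the 10 genes and the list genes named by the rule, some log2 fold changes that had not been called changed sign with 1 rat left out. These were Spp1 (-0.84 to 0.61), Ctsk (-0.38 to 0.04), Apoe (-0.29 to 0.17), Fabp4 (-0.46 to 0.69) and Tfec (-0.34 to 0.02), for which the cause was not tested. When a term separated low from high rat numbers, Apoe was at -0.01. The median log2 fold change of all genes was 0.0069 with upper-quartile normalization and 0.0041 with total counts alone, against 0.0083 in the main fit. DESeq2 gave 0.0038. No paired analysis was possible because the groups have no rat number in common. Ctsk, Mmp12, Ms4a7 and Pparg gave no value with at least 10 counts in every rat. Depth limits Ctsk and Dcstamp.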
